A study of Mus musculus with 12 samples.

Results

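Chemokine receptors are the surface receptors by which T cells read the chemical signals that bring them into a tissue and hold them there. The 7 receptor genes Cxcr6, Cxcr3, Cxcr4, Ccr2, Ccr8, Ccr9 and Cx3cr1 were chosen by name, with earlier results of these data known. They are 7 of the 32285 genes in the count matrices. Their RNA was followed in CD8 T cells of NOD/ShiLtJ (NOD) mice, a strain that develops autoimmune diabetes. The cells came from pancreatic islets and spleens of prediabetic females aged 10 to 15 weeks, pooled from 10 mice in each of 2 rounds. CD45.1+ CD8+ cells that lacked CD4, B220 and CD11b were sorted with a Kd tetramer carrying NRP-V7, a mimotope of residues 206 to 214 of the islet protein IGRP. The sort gave 3 groups, islet cells without tetramer, islet cells with tetramer and spleen cells with tetramer (IGRP-, IGRP+ and IGRP+ in the labels), with 1 library of each in each round. They are called tetramer-negative islet, tetramer-positive islet and spleen below. No mouse was treated or genetically altered. The sorted spleen cells were also CD44+ according to the study, and they had been enriched for CD8 T cells on magnetic beads.

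Most chemokine receptors couple to inhibitory G proteins, and the cell moves up a gradient of the ligand. CXCR6 binds the transmembrane chemokine CXCL16 and is known from T cells that reside in tissues. CXCR3 binds the interferon-induced ligands CXCL9 and CXCL10, and CXCR4 binds CXCL12, a retention signal in bone marrow and lymphoid tissue. CCR2 binds CCL2 and related ligands of inflamed tissue, CCR8 binds CCL1 and CCL8, and CCR9 binds CCL25 of thymus and small intestine. CX3CR1 binds the membrane-anchored chemokine CX3CL1 and marks circulating effector and effector-memory CD8 T cells.

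Levels are raw unique molecular identifiers (UMIs) summed over the cells of a library and given per 1000000 UMIs of that library (CPM). Of 26818 cells, 24117 had mitochondrial UMIs under 5% and 200 to 3500 genes in islet or 200 to 2000 genes in spleen. A library held 1204 to 8932 such cells, with a median of 2590 to 4216.5 UMIs per cell, lower in both spleen libraries than in all 4 islet libraries. The share of cells with a UMI is therefore given after thinning each cell to 1000 UMIs, with an exact (Clopper-Pearson) 95% interval where one is printed. These intervals cover counting error only. Between any 2 libraries 5 to 77 cell barcodes were the same, 321 over the 15 pairs, and in 0 of these did the paired T cell receptor sequence match too. The defining CD8 T cell genes (Cd3d, Cd3e, Cd3g, Cd8a, Cd8b1, Trac) summed to 4198 to 5884 CPM in every library, while Cd4 and Foxp3 together stayed at or under 1.38 CPM. The 12 exocrine genes summed to 141 to 471 CPM in tetramer-negative islet, 62.2 to 174 CPM in tetramer-positive islet and 5.62 to 6.51 CPM in spleen libraries, so their level moved with tissue. The 6 endocrine genes were at 5.27 to 136 CPM in islet libraries and at 0 in spleen. The 7 myeloid markers summed to 168 to 226 CPM across the 6 libraries, nearly all of it from Cst3 (146 to 194 CPM) and Cd68 (14.2 to 27.9 CPM), while Lyz2, Csf1r, Itgam, Fcer1g and C1qa each stood at 0 to 3.66 CPM, with Fcer1g and C1qa at 0 in spleen. The 4 B cell markers summed to at most 11.4 CPM, highest in spleen. The alternatives at the end include fits without cells that carry markers of B, myeloid or exocrine cells. What part RNA of other cells has in the receptor values was not tested beyond these. Only 25 cells had no UMI of the CD8 T cell genes, no receptor pair and at least 1000 UMIs, too few to set a background for each gene.

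Groups were compared on the summed UMIs of the libraries with edgeR's quasi-likelihood test, Benjamini-Hochberg adjusted over all genes tested. A gene was called at an adjusted p under 0.05. With 2 libraries a group an exact two-sided permutation test of a single value cannot go below p = 0.33, so it could call none of the differences below. Each comparison between tissues also compares the way the tissues were handled, since islets were digested with collagenase and rested in warm medium and spleens were mechanically dispersed, and these cannot be told apart.

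**Figure D1:**
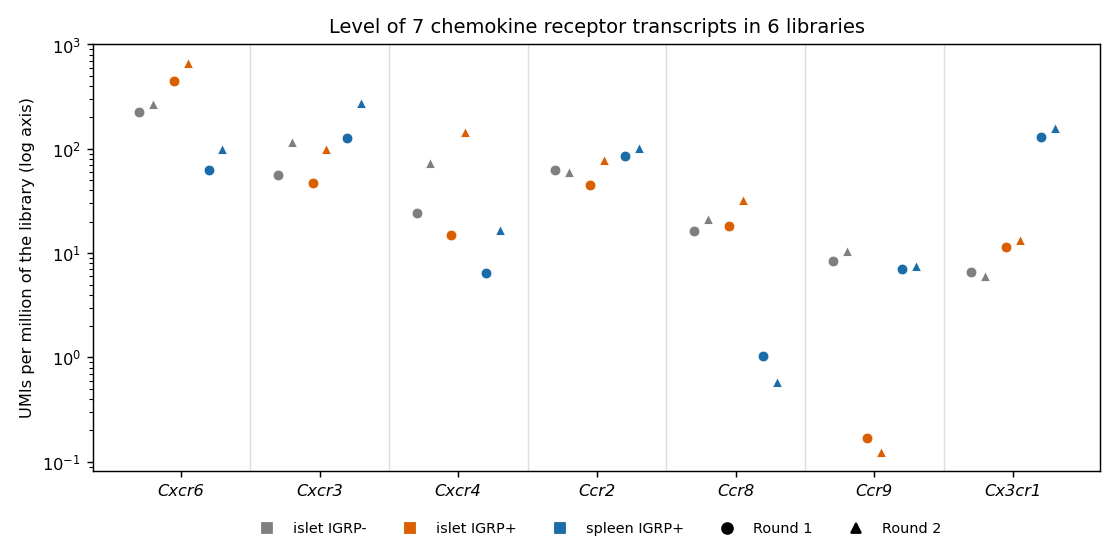
Level of each receptor gene in CPM (log axis) in the 6 libraries, by group, with Round 1 as circles and Round 2 as triangles. Cx3cr1 stands at 130 to 158 CPM in spleen and at 5.98 to 13.4 CPM in islets, and Ccr9 falls to 0.170 and 0.125 CPM in tetramer-positive islet cells alone.

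Among the CXC receptors, Cxcr6 (ENSMUSG00000048521) was highest in tetramer-positive islet cells, intermediate in tetramer-negative islet cells and lowest in spleen, and no 2 groups overlapped. Its level was 223 and 267 CPM in the tetramer-negative islet libraries of Rounds 1 and 2, 445 and 659 CPM in tetramer-positive islet, and 62.1 and 99.3 CPM in spleen. Within a round the spleen level was 0.140 and 0.151 times that of tetramer-positive islet cells. Cxcr6 fell in spleen relative to tetramer-positive islet cells, by 2.88 ± 0.23 on the log2 scale (SE, 2 libraries a group), with an edgeR adjusted p of 0.00204. The step between the 2 islet groups was 1.15 ± 0.22 on the log2 scale, higher in tetramer-positive cells in both rounds, but the edgeR adjusted p was 0.0814. It passed with the round as a block (edgeR adjusted p = 1.96e-05), with DESeq2, without the count filter and with at most 2000 genes per cell in both tissues. After thinning, 12.9% and 15.2% of tetramer-negative islet cells, 27.9% and 33.3% of tetramer-positive islet cells and 6.00% and 9.19% of spleen cells had a Cxcr6 UMI. A tetramer-positive islet cell with any Cxcr6 UMI held 4.52 and 6.30 of them on average before thinning, against 1.41 and 1.56 in spleen, so level and detection differed in the same direction.

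Cxcr6 lies on chromosome 9 of GRCm38 (123806475 to 123811760, plus strand), and an exon is overlapped by Fyco1 on the opposite strand. Fyco1 stood at 15.0 to 41.7 CPM and was highest in both spleen libraries, the reverse of Cxcr6. The 250 bases before the RefSeq start site of Cxcr6, higher in islet than in spleen cells, and of Cx3cr1, higher in spleen than in islet cells, are shown as a pair with opposite directions, 5′ to 3′ on the gene's strand with CpG dinucleotides in capitals, from RefSeq on GRCm38.p6.
Cxcr6, chr9:123806227-123806476, plus strand: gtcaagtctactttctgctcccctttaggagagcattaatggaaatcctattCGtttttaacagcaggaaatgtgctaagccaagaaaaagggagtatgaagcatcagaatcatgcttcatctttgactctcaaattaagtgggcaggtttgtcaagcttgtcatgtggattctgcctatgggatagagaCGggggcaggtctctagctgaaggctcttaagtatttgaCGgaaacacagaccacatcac
Cx3cr1, chr9:120068297-120068546, minus strand: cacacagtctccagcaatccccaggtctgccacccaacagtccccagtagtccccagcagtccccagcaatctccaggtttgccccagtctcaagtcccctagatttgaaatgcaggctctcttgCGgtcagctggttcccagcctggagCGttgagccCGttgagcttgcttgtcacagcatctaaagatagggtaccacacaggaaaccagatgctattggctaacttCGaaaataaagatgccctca
These windows hold 3 and 4 CpG. The corresponding windows of Cxcr3, Ccr2, Ccr8 and Ccr9 hold 3, 1, 1 and 3, against a median of 6 over 32851 promoters, and that of Cxcr4 holds 19.

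Cxcr3 had the reverse order of Cxcr6 between tissues. It stood at 56.1 and 116 CPM in tetramer-negative islet, 47.1 and 99 CPM in tetramer-positive islet and 128 and 276 CPM in spleen libraries. Every group was about as far apart between rounds, with the Round 2 library 2.07, 2.10 and 2.15 times the Round 1 library, and within a round spleen was 2.72 and 2.79 times tetramer-positive islet. The spleen and tetramer-positive islet libraries did not overlap, and the log2 difference was 1.36 ± 0.46, with an edgeR adjusted p of 0.0753. With the round as a block the edgeR adjusted p became 5.77e-07. The 2 islet groups overlapped, with a log2 difference of -0.26 ± 0.45 (edgeR adjusted p = 0.803). Detection followed the level: 12.2% and 23.5% of thinned spleen cells had a UMI, against 4.67% and 8.81% of tetramer-positive and 5.37% and 9.83% of tetramer-negative islet cells.

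Cxcr4 was the receptor whose level depended most on the round. Its level was 24.1 and 73.0 CPM in tetramer-negative islet, 15.0 and 144 CPM in tetramer-positive islet and 6.45 and 16.8 CPM in spleen libraries. The tetramer-positive islet library of Round 2 was 9.65 times that of Round 1, and this group overlapped both others. Spleen was the lowest group in each round, at 0.431 and 0.116 times tetramer-positive islet. The log2 difference from tetramer-positive islet was -2.85 ± 1.05, with an edgeR adjusted p of 0.0949, of 1.89e-05 with the round as a block, and of 0.0360 at -3.66 without the tetramer-positive islet library of Round 1. Without the tetramer-positive islet library of Round 2 the difference was -0.65. Between the 2 islet groups the ratio was 0.621 in Round 1 and 1.98 in Round 2, and the fitted difference of 0.65 ± 0.95 did not pass (edgeR adjusted p = 0.754). The share of thinned cells with a UMI was 2.29% and 13.6% in tetramer-positive islet and 0.695% and 1.98% in spleen. Read length differed between the rounds as well as the mice, and the 2 cannot be told apart.

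The CC receptors each had their own pattern. Ccr2 was close between groups. It stood at 63.0 and 59.8 CPM in tetramer-negative islet, 44.7 and 78.1 CPM in tetramer-positive islet and 84.6 and 102 CPM in spleen libraries, with spleen highest in each round. Spleen was 1.89 and 1.30 times tetramer-positive islet, a log2 difference of 0.53 ± 0.21 with an edgeR adjusted p of 0.120, of 0.0126 with the round as a block, and of 0.0465 without the tetramer-positive islet library of Round 2. The 2 islet groups overlapped, and their log2 difference was -0.03 ± 0.21 (edgeR adjusted p = 0.951). Thinned shares were 8.78% and 8.98% in spleen against 3.99% and 6.62% in tetramer-positive and 5.24% and 4.95% in tetramer-negative islet cells.

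Ccr8 was a gene of the islet cells. Its level was 16.2 and 21.1 CPM in tetramer-negative islet and 18.2 and 32.1 CPM in tetramer-positive islet, but 1.04 and 0.579 CPM in spleen, where 10 and 4 UMIs were counted in all. Both islet groups lay above both spleen libraries and overlapped each other. Summed over rounds, 363 UMIs in tetramer-positive islet and 14 in spleen gave a ratio of 30.9 (95% counting interval 18.2 to 57.1). This interval, like those of Ccr9 below, takes each UMI as independent. In the tetramer-positive islet library of Round 2, however, 1 clone of 82 cells held 50 of the 256 Ccr8 UMIs. Ccr8 fell in spleen, by 4.94 ± 0.40 on the log2 scale relative to tetramer-positive islet cells (edgeR adjusted p = 0.00203) and by 4.54 ± 0.39 relative to tetramer-negative islet cells (edgeR adjusted p = 0.00323). Without the spleen library of Round 1 these were -5.61 and -5.19, still called. Even in islets Ccr8 was found in few cells, 1.31% and 1.51% of tetramer-negative and 1.70% and 2.12% of tetramer-positive cells after thinning.

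Ccr9 was higher in the tetramer-negative than in the tetramer-positive islet libraries, though few cells of either group had a UMI. Within tetramer-negative islet cells it also differed with clone size, as given below. It stood at 8.34 and 10.4 CPM in tetramer-negative islet, 0.170 and 0.125 CPM in tetramer-positive islet, where each library held 1 UMI, and 7.08 and 7.53 CPM in spleen. Only the tetramer-positive islet libraries were low. With 665 UMIs in tetramer-negative and 2 in tetramer-positive islet cells the ratio was 66.2 (95% counting interval 18.3 to 548), and for the 120 UMIs of spleen it was 50.4 (13.6 to 421). Ccr9 was the 1 receptor called between the islet groups (edgeR adjusted p = 0.00827), and it was called between spleen and tetramer-positive islet (edgeR adjusted p = 0.00155). The islet call was lost at an edgeR adjusted p of 0.0558 without tetramer-negative Round 1, 0.0532 without tetramer-positive Round 1 and 0.0689 without tetramer-positive Round 2, and stayed at 0.0491 without tetramer-negative Round 2. After thinning, 0 of 1178 and 0 of 1555 tetramer-positive islet cells had a Ccr9 UMI, which allows shares of cells with a UMI of up to 0.255% and 0.193% (3 cells of the total, not the exact interval). The shares were 1.01% and 1.19% in tetramer-negative islet and 0.521% and 0.590% in spleen cells. Ccr9 also marks plasmacytoid dendritic cells, and the other 2 markers on that list are Siglech and Klk1. Siglech stood at 1.46 CPM in tetramer-negative islet Round 2 and at 0 in every other library. Klk1 stood at 0.617 and 3.36 CPM in tetramer-negative islet and 0.340 and 1.25 CPM in tetramer-positive islet libraries. In spleen, where Ccr9 was present, both genes were at 0.

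Cx3cr1, the CX3C receptor, had the largest spleen excess among the receptors with more than 2 UMIs in each group. It stood at 6.55 and 5.98 CPM in tetramer-negative islet, 11.6 and 13.4 CPM in tetramer-positive islet, and 130 and 158 CPM in spleen libraries. No 2 groups overlapped. Cx3cr1 rose in spleen over tetramer-positive islet cells, 11.3-fold and 11.8-fold within the rounds and 3.43 ± 0.17 on the log2 scale (edgeR adjusted p = 0.00120), and over tetramer-negative islet cells by 4.41 ± 0.17 (edgeR adjusted p = 0.00103). Between the islet groups tetramer-positive cells stood 1.76 and 2.24 times higher, a log2 difference of 0.98 ± 0.16 with an edgeR adjusted p of 0.0551, and of 5.15e-04 with the round as a block. After thinning, 12.5% (95% interval 11.4 to 13.7) and 14.2% (12.8 to 15.6) of spleen cells had a UMI, against 0.679% and 1.22% of tetramer-positive islet cells. The annotated span of Cx3cr1 on chromosome 9 (119901616 to 120069879, minus strand) overlaps Wdr48, which stood at 22.8 to 41.2 CPM and was lowest in both spleen libraries.

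**Figure D2:**
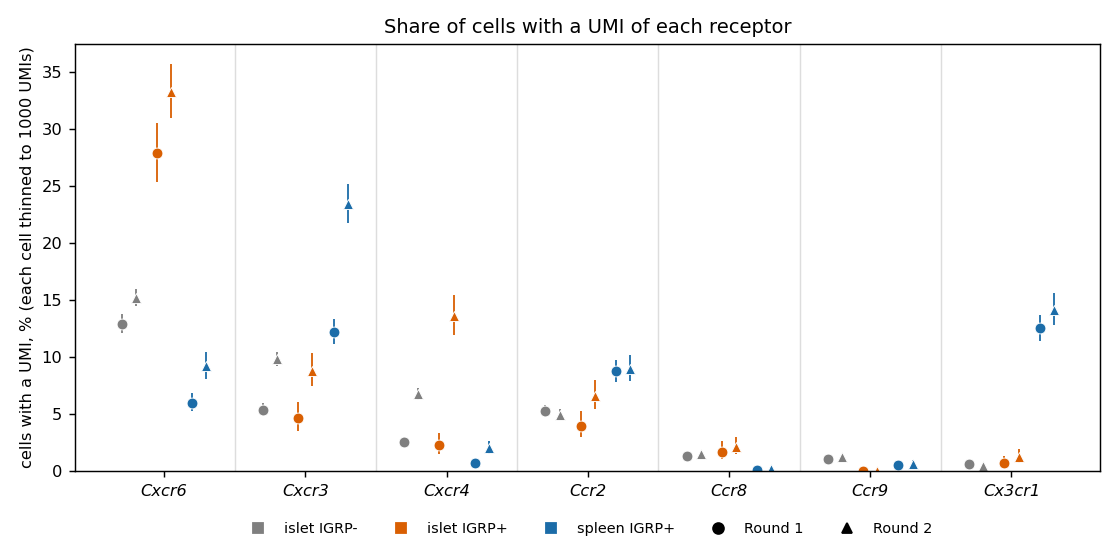
Percent of cells with at least 1 UMI of each receptor after thinning to 1000 UMIs per cell, in the 6 libraries, with exact 95% intervals as bars. Cxcr6 reaches 27.9% and 33.3% in tetramer-positive islet cells, and Cx3cr1 12.5% and 14.2% in spleen cells.

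Over all genes, more were called between tissues than within islets, both without and with the round as a block. Between spleen and tetramer-positive islet cells 26.6% of 11277 genes were called, and 4 of the 7 receptors were, with Ccr9 and Cx3cr1 higher and Cxcr6 and Ccr8 lower in spleen. With the round as a block 55.1% of genes were called, and all 7 receptors. Between the 2 islet groups 1.19% of genes were called and 1 of the 7 receptors, Ccr9, lower in tetramer-positive cells. The block raised this to 30.5% of genes and 3 receptors, adding Cxcr6 and Cx3cr1, both higher. Spleen and tetramer-negative islet cells, which differ in tissue and in tetramer binding, gave 22.4% of genes and 3 receptors, Cx3cr1 higher and Cxcr6 and Ccr8 lower, and with the block 55.4% of genes and 6 receptors. The block added Cxcr3 (1.11 ± 0.45, edgeR adjusted p = 0.132, blocked 2.02e-06), Cxcr4 (-2.19 ± 1.02, edgeR adjusted p = 0.176, blocked 5.40e-05) and Ccr2 (0.49 ± 0.21, edgeR adjusted p = 0.148, blocked 0.0127). Cxcr4 moved to -1.28 without tetramer-negative islet Round 2 and to -2.85 without spleen Round 2. The Cxcr6 difference in that comparison was -1.72 ± 0.22 (edgeR adjusted p = 0.00714), and without the spleen library of Round 1 it was -1.50 (edgeR adjusted p = 0.0566). Ccr9 did not pass there, at -0.45 ± 0.22 (edgeR adjusted p = 0.189). These 3 comparisons share libraries pairwise, so they are not independent of each other.

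**Figure D3:**
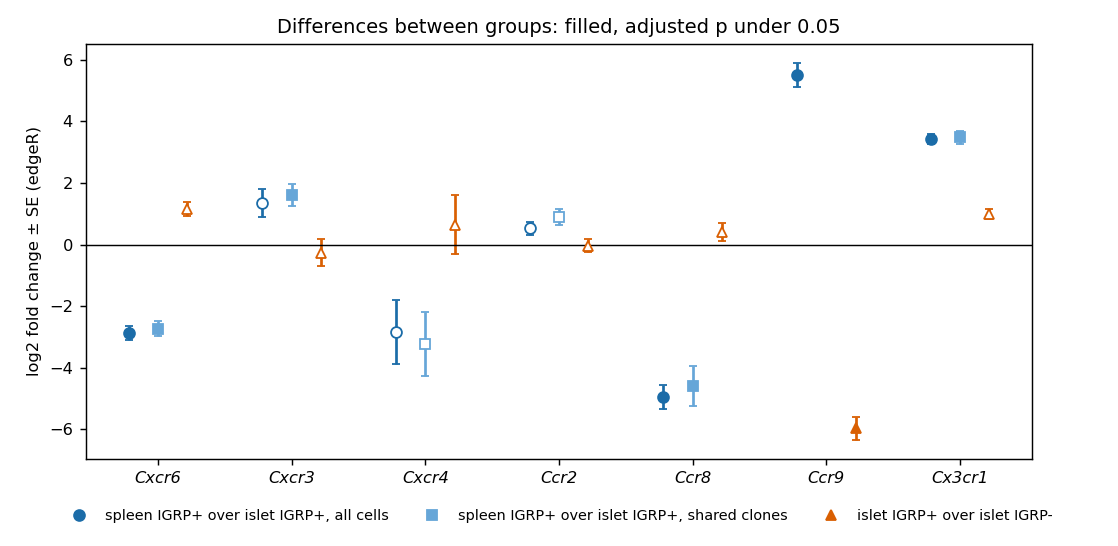
Log2 fold change of each receptor with its SE as bars, for spleen over tetramer-positive islet cells (all cells and shared clones) and for tetramer-positive over tetramer-negative islet cells, with filled symbols for edgeR adjusted p under 0.05. For Cxcr6 the spleen difference is -2.88 in all cells and -2.73 in shared clones, and for Cx3cr1 it is 3.43 and 3.49.

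To hold the T cell receptor the same in both tissues, cells were grouped into clones with identical alpha and beta CDR3 nucleotide sequences. In Round 1, 31 clones, and in Round 2, 35 clones were found among tetramer-positive cells of both tissues, 66 in all with 1766 islet and 2820 spleen cells, and 4 of them occurred in both rounds. The CDR3 sequences of the 4 clones with the most cells show what "the same clone" means here. In the beta chains the capitals mark the stretch between the start and the end that all 4 share, and the alpha chain of clones 1, 2 and 4 was the same to the base.
Clones 1, 2 and 4, alpha (TRAV16N, TRAJ42): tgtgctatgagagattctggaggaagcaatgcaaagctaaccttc
Clone 3, alpha (TRAV16N, TRAJ49): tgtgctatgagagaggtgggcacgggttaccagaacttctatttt
Clone 1, beta (TRBV13-3, TRBJ2-2): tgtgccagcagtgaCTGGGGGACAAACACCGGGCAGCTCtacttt
Clone 2, beta (TRBV13-3, TRBJ2-4): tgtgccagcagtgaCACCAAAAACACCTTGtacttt
Clone 3, beta (TRBV13-3, TRBJ2-4): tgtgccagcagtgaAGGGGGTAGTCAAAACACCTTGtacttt
Clone 4, beta (TRBV13-3, TRBJ2-4): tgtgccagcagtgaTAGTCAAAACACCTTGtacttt

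Within clone 1 (Round 2, 193 islet and 323 spleen cells) Cxcr6 stood at 764 CPM in islet and 88.8 CPM in spleen, Cxcr3 at 86.3 and 332 CPM, and Cx3cr1 at 16.0 and 232 CPM. In clone 2 (Round 2, 205 and 164 cells) Cxcr6 was 374 and 46.5 CPM and Cx3cr1 19.4 and 182 CPM. In clone 3 (Round 1, 86 and 265 cells) Cxcr6 was 463 and 60.2 CPM and Cx3cr1 10.8 and 119 CPM. Clone 4 (Round 1, 116 and 232 cells) had Cxcr6 at 527 and 92.4 CPM and Cx3cr1 at 18.3 and 225 CPM. All 4 clones thus carried high Cxcr6 with low Cx3cr1 in islet and the opposite in spleen.

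Summed over the shared clones, 4 of the 6 receptors that passed the count filter were called between tissues, against 16.3% of 9960 genes. Cxcr6 (-2.73 ± 0.24, edgeR adjusted p = 0.00678) and Ccr8 (-4.59 ± 0.66, edgeR adjusted p = 0.0130) fell in spleen. Cx3cr1 (3.49 ± 0.21, edgeR adjusted p = 0.00516) and Cxcr3 (1.61 ± 0.37, edgeR adjusted p = 0.0377) rose. Ccr8 stood at -5.75 without spleen Round 1, at -3.85 without spleen Round 2 and at -3.92 without tetramer-positive islet Round 2. A fit without 1 library leaves an arm with a single library and 1 residual degree of freedom, so its calls rest on the spread of other genes and are no sign of stability. Cxcr4 was at -3.22 ± 1.05 (edgeR adjusted p = 0.0891) and Ccr2 at 0.90 ± 0.27 (edgeR adjusted p = 0.0752). With the round as a block 51.1% of genes were called and all 6 receptors, with edgeR adjusted p of 1.72e-39 for Cxcr4 and 3.63e-08 for Ccr2. The blocked fit also has 1 residual degree of freedom, and its prior degrees of freedom were estimated as infinite, so those p-values rest on the spread of other genes. In such fits Cxcr4 was called without tetramer-positive islet Round 1 (-4.08), without spleen Round 1 (-2.80) and without spleen Round 2 (-3.93), but stood at -0.77 without tetramer-positive islet Round 2. Ccr2 was called at 1.27 without tetramer-positive islet Round 2. Ccr9 was too low in these clones to be tested.

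Clone by clone, 44 clones had at least 5 cells in each tissue, 19 in Round 1 and 25 in Round 2, with 41 different sequence pairs. Cxcr3 was higher in spleen in 44 of 44, with a median of 74.0 CPM in islet and 254 CPM in spleen. For Cxcr6, 43 of 44 clones were lower in spleen, with medians of 574 and 80.8 CPM. Cx3cr1 was higher in spleen in 40, lower in 3 and equal in 1, with medians of 6.45 and 148 CPM. Ccr2 was higher in spleen in 35 of 44, with medians of 58.8 and 120 CPM. By thinned share in place of CPM, Ccr2 was higher in spleen in 15, lower in 2 and equal in 2 clones of Round 1. In Round 2 that share was higher in 12, lower in 9 and equal in 4. By CPM again, Ccr8 was lower in 25, higher in 3 and without a UMI in either tissue in 16. For Cxcr4, 24 of 25 clones of Round 2 were lower in spleen, while in Round 1 9 were lower, 4 higher and 6 without a UMI. Ccr9 had no UMI in 41 of the 44 clones. Among 6218 genes with a level of at least 20 CPM in these clones, 1.85% were as one-sided as Cxcr3, 3.86% as Cxcr6 and 9.68% as Cx3cr1, but 27.0% as Ccr2, 36.4% as Cxcr4 and 83.3% as Ccr8. Clones of a round share their 2 libraries and are not replicates, so no p is given.

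**Figure D4:**
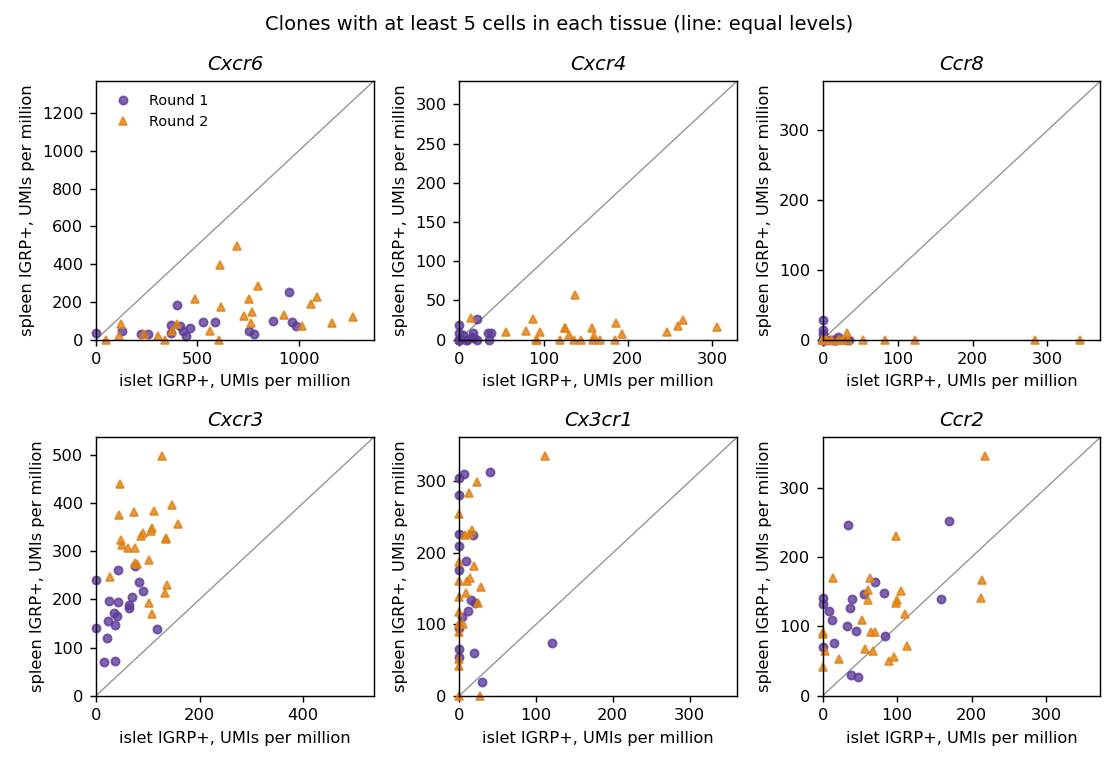
Level in CPM of 6 receptors in islet and in spleen (horizontal and vertical axes), with 1 point for each of the 44 clones with at least 5 cells in both tissues, circles for Round 1, triangles for Round 2 and a diagonal at equal levels. The points lie below the diagonal for Cxcr6 in 43 clones, and above it for Cxcr3 in 44 and for Cx3cr1 in 40.

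The clones differed among themselves within a tissue. Among clones of at least 20 cells, the thinned share of islet cells with a Cxcr6 UMI ran from 2.94% to 61.3% over the 16 clones of Round 2, with a median of 35.6%, and from 12.5% to 53.4% over the 6 of Round 1. In spleen the share with a Cx3cr1 UMI ran from 2.38% to 32.1% over 16 clones in Round 1 and from 3.39% to 23.3% over 17 in Round 2. Cxcr3 in spleen spanned 2.38% to 25% and 13.0% to 38.7%. Ccr9 was at 0 in every such clone of both tissues.

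Clone size separated the receptors a second way. In tetramer-negative islet cells, those whose clone had 1 cell in the library were set against those of clones with at least 2 cells. The latter are called expanded. Both arms are sums from the same libraries, and the fit without the block does not use this pairing. Cxcr6, Ccr2, Ccr8 and Cx3cr1 rose with expansion and Ccr9 fell, 5 of 7 receptors against 7.74% of 10975 genes. Cxcr6 stood at 70.4 and 67.0 CPM in single-cell clones and 369 and 481 CPM in expanded clones, 2.46 ± 0.20 on the log2 scale (edgeR adjusted p = 0.00229). Cx3cr1 stood at 2.63 and 1.56 CPM in single-cell and 10.6 and 11.1 CPM in expanded clones, a rise of 2.28 ± 0.27 (edgeR adjusted p = 0.00565). Ccr2 was 30.4 and 27.2 CPM against 91.5 and 91.6 CPM in expanded clones (1.51 ± 0.25, edgeR adjusted p = 0.0164). For none of these 3 did the single-cell values of either round reach the expanded ones.

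For Ccr8 the levels were 8.70 and 8.93 CPM in single-cell and 26.2 and 37.4 CPM in expanded clones (1.68 ± 0.34, edgeR adjusted p = 0.0305). Ccr9 ran the other way, with 15.1 and 18.4 CPM in single-cell clones and 0.691 and 1.17 CPM in expanded clones (-4.28 ± 0.42, edgeR adjusted p = 0.00372). Cxcr3 (0.51 ± 0.43, edgeR adjusted p = 0.556) and Cxcr4 (0.66 ± 1.00, edgeR adjusted p = 0.779) did not pass, although both were higher in expanded clones in each round. The block called 32.8% of genes and added Cxcr3 (edgeR adjusted p = 0.00717) but not Cxcr4 (edgeR adjusted p = 0.0769). Without either tetramer-negative islet library, which leaves 1 library for each arm, edgeR called no gene, and the lone library is assumed to vary like the other groups. The 5 receptors then had edgeR adjusted p of 0.0819 to 0.247 without Round 1 and 0.170 to 0.515 without Round 2, with Cxcr6 at 2.68 and 2.20 and Ccr9 at -4.11 and -4.59. Across those 2 fits 1151 and 1003 genes had an unadjusted p under 0.05.

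When both islet groups were limited to expanded clones, none of the 7 receptors was called by edgeR, against 0.0638% of genes (7 of 10975). At an unadjusted p under 0.05 there were 2, Cxcr6 and Ccr9, and DESeq2 called 0. The Cxcr6 difference was 0.47 ± 0.19 (edgeR adjusted p = 0.720) and that of Cx3cr1 0.50 ± 0.23 (edgeR adjusted p = 0.734). Ccr9 stood at -2.10 ± 0.76 (edgeR adjusted p = 0.701). The block called 7.05% of genes and 2 receptors, Cxcr6 (0.48, edgeR adjusted p = 0.0401) and Cxcr3 (-0.45, edgeR adjusted p = 0.0479). Whether the islet difference was smaller in expanded clones than in all cells was not tested.

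Spleen cells were described by clone size too, with few single cells, 252 and 162 against 1408 and 1506 in expanded clones, and no test. Ccr9 stood at 40.2 and 40.9 CPM in single-cell clones and 0 and 0.462 CPM in expanded clones, where 0 of 1400 thinned cells of Round 1 had a UMI, which allows up to 0.214%. Cx3cr1 was 3.01 and 12.1 CPM in single-cell and 170 and 175 CPM in expanded clones. Cxcr3 was 39.1 and 108 CPM against 173 and 305 CPM, and Ccr2 6.02 and 12.1 CPM against 118 and 119 CPM. Cxcr6 was 31.1 and 59.1 CPM in single-cell and 76.1 and 110 CPM in expanded clones. Ccr8 had 6 and 2 UMIs in expanded clones and none in single-cell clones, where 0 of 251 and 0 of 162 thinned cells allow up to 1.20% and 1.85%. Cxcr4 stood at 7.03 and 27.3 CPM in single-cell and 4.71 and 12.5 CPM in expanded clones, lower in expanded clones in both rounds, while in tetramer-negative islet it was higher there in both. In both tissues Ccr9 was thus higher in cells whose clone was seen once than in expanded clones. Tetramer-positive islet cells held only 12 and 14 single-cell clones and are not described this way.

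**Figure D5:**
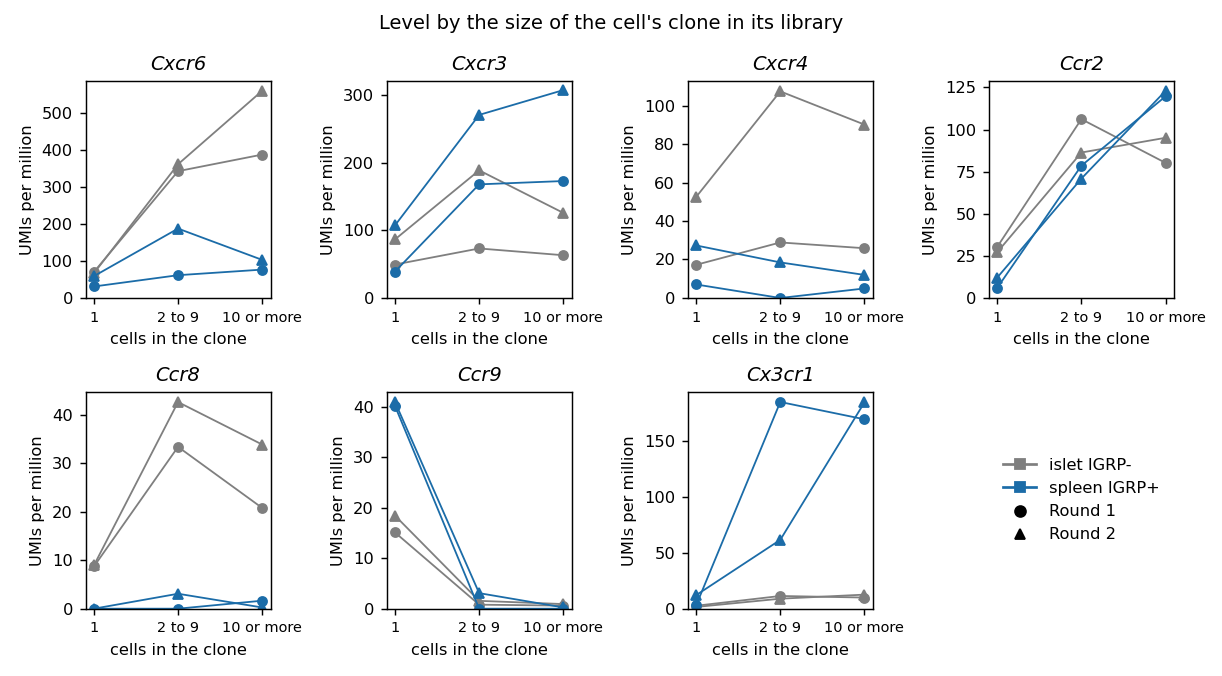
Level in CPM of each receptor by clone size (1 cell, 2 to 9 cells, 10 cells or more) in tetramer-negative islet and in spleen cells, with 1 line for each round. Cxcr6 goes from 70.4 and 67.0 CPM in single cells to 388 and 561 CPM in the largest islet clones, and Ccr9 from 15.1 and 18.4 CPM to 0.611 and 0.918 CPM.

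In single cells after thinning the receptors were rarely seen together. What part the loss of UMIs by thinning has in this was not tested. No receptor was detected in 48.8% to 75.3% of thinned cells, and at least 2 of them in 4.07% to 13.0%. Cxcr6 and Ccr2 were seen in the same cell more often than the product of their shares, by a factor of 2.96 and 2.57 in tetramer-negative islet, 1.75 and 2.10 in tetramer-positive islet and 1.98 and 1.89 in spleen cells. In tetramer-positive islet cells of Round 2, 69.9% of the 103 cells with a Ccr2 UMI also had Cxcr6, against 30.7% of the cells without Ccr2. Cxcr6 and Cxcr3 were closer to the product, at 0.833 to 1.47 over the 6 libraries. Ccr2 and Cx3cr1 were seen together 1.74 and 1.66 times as often in spleen. These are descriptions of cells in 1 library, which are not replicates.

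Genes of the T cell state placed the receptors further. Pdcd1 encodes the inhibitory receptor PD-1, and 35.4% and 41.7% of tetramer-positive islet cells with a Pdcd1 UMI had Cxcr6, against 23.0% and 26.8% of the others. In tetramer-negative islet cells these shares were 29.0% and 32.4% against 9.14% and 11.7%. Ccr8 was likewise seen with Pdcd1 2.39 and 2.57 times as often as the product in tetramer-negative islet cells. Ccr9 was seen with Pdcd1 less often than the product there, at 0.163 and 0.112 times, with 2 cells holding both in each round. In spleen 31.4% and 35.3% of cells with Klrg1, a gene of terminal effector cells, had Cx3cr1, against 11.3% and 12.5% of those without it. Gzmb, the gene of the cytotoxic protease granzyme B, gave 32.5% and 30.9% against 12% and 13.7%.

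Other genes of the chemokine pathway came from a list of 17 further receptors, 12 ligands of the 7 receptors and 26 genes of receptor signalling, of which 5, 5 and 25 passed the count filter. Between spleen and tetramer-positive islet cells 0 of 5 receptors, 3 of 5 ligands (all lower in spleen) and 11 of 25 signalling genes (7 higher, 4 lower) were called by edgeR, against 26.6% of all genes, and with the block 3, 4 and 18, against 55.1%. Of the 5 receptors 3 had an unadjusted p under 0.05 and DESeq2 called 2. The median log2 difference was -0.78 for the receptors, -2.02 for the ligands and 0.18 for the signalling genes, against 0.03 over all genes. Ccl1, the ligand gene of CCR8, stood at 7.14 and 4.26 CPM in tetramer-positive islet cells and was at 0 in both spleen libraries, at least 30.2-fold higher in islet against a floor of 3 UMIs over the group. Cxcl10, a ligand gene of CXCR3, fell in spleen from 36.1 and 40.2 CPM to 10.9 and 8.83 CPM (-2.02 ± 0.25, edgeR adjusted p = 0.00518), the reverse of Cxcr3.

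Among the signalling genes, the regulators of G protein signalling (RGS), which shorten the signal of the receptors, moved in both directions. Rgs16 fell in spleen from 701 and 739 CPM to 77.1 and 49.7 CPM (-3.57 ± 0.36, edgeR adjusted p = 0.00330). Rgs2 fell too, by 2.47 ± 0.30 on the log2 scale (edgeR adjusted p = 0.00481). Rgs3 rose by 1.51 ± 0.18 on that scale (edgeR adjusted p = 0.00490) and Rgs14 by 1.21 ± 0.27 (edgeR adjusted p = 0.0231). Pik3r5 (1.41 ± 0.18, edgeR adjusted p = 0.00582), a subunit of the phosphoinositide 3-kinase that G proteins activate, and Dock2 (1.10 ± 0.24, edgeR adjusted p = 0.0230), which drives actin-based migration of lymphocytes, rose. In the shared clones 1 of 5 receptors, 1 of 2 ligands and 10 of 24 signalling genes were called, against 16.3% of all genes, and 3, 1 and 17 with the block, against 51.1%. Rgs16 (-3.28), Rgs2 (-2.39), Rgs10 (-2.02) and Ccr7 (-1.88) were the largest falls in those clones and Rgs3 (1.67), Pik3r5 (1.39), Rgs14 (1.22) and Dock2 (1.17) the largest rises.

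Between the 2 islet groups none of these 35 genes was called by edgeR, against 1.19% of all genes, and with the block 1 receptor and 9 signalling genes were, against 30.5%. At an unadjusted p under 0.05 there were 1 receptor and 4 signalling genes, and DESeq2 called 1 of each. Between spleen and tetramer-negative islet cells 2 receptors, 3 ligands and 11 signalling genes were called, against 22.4% of all genes, and 3, 4 and 22 with the block, against 55.4%. The largest changes there were falls of Ccl1 (at least 18.0-fold), Ccr7 (-2.62), Rgs16 (-2.54) and Cxcl10 (-2.34) and rises of Rgs3 (1.65), Rgs14 (1.31), Arrb2 (1.06) and Rgs19 (0.98). In the expanded against the single-cell clones of tetramer-negative islet cells Ccr7, the receptor that brings T cells into lymph nodes, fell (-2.57 ± 0.45, edgeR adjusted p = 0.0200), as did Rgs10 (-1.43 ± 0.14, edgeR adjusted p = 0.00344). Rgs16 (2.45 ± 0.38, edgeR adjusted p = 0.0133) and Gng2 (1.04 ± 0.24, edgeR adjusted p = 0.0472) rose. With the block 2 receptors and 14 signalling genes were called, against 32.8% of all genes. Between the expanded clones of the islet groups edgeR called none, against 0.0638% of all genes, or 2 signalling genes with the block, against 7.05%. A single signalling gene had an unadjusted p under 0.05, and DESeq2 called 0.

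Among the genes whose level was most like a receptor's over the 6 libraries, by Pearson's r of log2(CPM + 1) among 6291 genes, were Ergic2 (0.998), Txnl1 (0.997) and Cct2 (0.996) for Cxcr6. For Cxcr3 they were Mpnd (0.998), Selplg (0.996) and Jak1 (0.996), and for Cxcr4 Gnai3 (0.995) and Cnot10 (0.994) were among the closest. Ccr2 was closest to Shfl (0.989), Endod1 (0.987) and Taf1b (0.982), and Ccr8 to Rpap3 (0.999), Csnk1a1 (0.998) and Ppp2r3a (0.998). Among the closest to Ccr9 were S1pr1 (0.990), the sphingosine 1-phosphate receptor by which T cells leave lymphoid organs, and Dph5 (0.990). For Cx3cr1 they were Rnf166 (0.998), Ube2w (0.998) and Kctd13 (0.997). Over 6 points that fall into 3 groups and 2 rounds, high values of r are a description only.

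Of the 7 genes, 5 lie on chromosome 9. The start sites of Cx3cr1 and Ccr8 are 23.8 kb apart and those of Ccr9 and Cxcr6 39.3 kb apart. For either pair 0 coding genes lie wholly between the start sites. Genes that reach past a start site were not counted, and Fyco1 overlaps Cxcr6. The start sites of Cxcr6 and Ccr2 are 296 kb apart, with Xcr1, Ccr1, Ccr1l1 and Ccr3 wholly between them. In spleen relative to tetramer-positive islet cells the neighbours went opposite ways, with Cx3cr1 and Ccr9 higher and Ccr8 and Cxcr6 lower. Relative to tetramer-negative islet cells Ccr9 (-0.45, not called) and Cxcr6 (-1.72) were both lower in spleen, and in expanded over single-cell islet clones Cx3cr1 (2.28) and Ccr8 (1.68) both rose, while Ccr9 fell and Cxcr6 rose. Cxcr3 lies on chromosome X and Cxcr4 on chromosome 1. In the 250 bases before the start sites, searched on both strands for the letters TGANTCA (AP-1), TGTGGTT (RUNX), GGTGTGA (T-box) and TGGAAAA (NFAT), the only match was TGGAAAA in Ccr2, 192 to 186 bases before the start. These letters occur in 6.75%, 4.40%, 3.33% and 5.93% of all such windows.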

How the data were processed

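The authors deposited 10x Chromium 5′ gene-by-cell matrices of raw UMI counts and tables of T cell receptor contigs with read and UMI counts for 6 libraries. Per the file headers these came from Cell Ranger 5.0.1, and per the labels the genome was mm10. Nothing was normalized, ambient RNA was not removed and no doublet caller was run. Cells were filtered at 5% mitochondrial UMIs and 200 to 3500 (islet) or 200 to 2000 (spleen) genes. Clones needed exactly 1 productive alpha and 1 productive beta chain. Counts were summed per library, or per library and clone class, and tested with edgeR 4.0.16 (TMM, filterByExpr, quasi-likelihood; limma 3.58.1, R 4.3.3), with all groups in 1 fit. DESeq2 1.42.0 was an alternative. Permutation tests and intervals used scipy 1.17.1 in Python 3.11.15. The fitting code was tested on simulated data.

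A library is the unit of replication, and its pool of 10 mice cannot be split into animals. The libraries of a round came from the same mice, so the round pairs them. The deviations of the groups between rounds correlated at r = 0.673, 0.701 and 0.603 over 11277 genes. The residual degrees of freedom were 3, 2 and 4 in the fits of all cells, shared clones and clone sizes, and 2, 1 and 3 with the round as a block. The alternatives also covered normalization, filters on counts and cells, chain rules, thinning to 2000 UMIs and each library left out.

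All 7 receptors were named whatever their values, with the 4 largest called changes in each direction among the other pathway genes and the 3 genes most like each receptor. The members and lists were chosen with earlier results of these data known. Of the pathway list, 2 genes (Cxcl11, Adrbk1) were not found under these names and were not analysed here. Some genes that these rules name are not reported here.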

Additional observations from a re-analysis of the deposited data

Results flagged for a closer look

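In 2 receptors the difference between the islet groups had opposite signs in the 2 rounds. The log2 ratio of CPM, tetramer-positive over tetramer-negative, was -0.69 in Round 1 and 0.98 in Round 2 for Cxcr4. For Ccr2 it was -0.49 in Round 1 and 0.38 in Round 2. Each round has 1 library per group, and the difference between rounds was not tested.

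Cxcr4 also differed between the tissues in how it went with clone size. The log2 ratio of CPM, expanded over single-cell clones, was 0.66 and 0.89 in tetramer-negative islet cells of Rounds 1 and 2, and -0.58 and -1.13 in spleen cells, where the single-cell clones held 7 and 18 Cxcr4 UMIs. This difference between tissues was not tested.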

How the results depend on the processing

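Leaving aside the block and the left-out libraries, 305 of 320 receptor differences under the other alternatives kept their direction and their side of the threshold, 13 came to pass it and 2 turned direction. The 2 were Ccr2 between the islet groups, at 0.36 with at most 2000 genes per cell in both tissues and at 0.15 without cells that carry markers of other cell types. Those that came to pass were Cxcr6 between the islet groups (DESeq2 adjusted p = 3.33e-05, and edgeR adjusted p of 0.00566 without the count filter and 0.0275 with at most 2000 genes), Cx3cr1 there (DESeq2 0.00101, no filter 0.0102), Cxcr3 in spleen over tetramer-positive islet (DESeq2 0.0164, no filter 0.00173), and Cxcr3, Cxcr4 and Ccr2 elsewhere, mostly without the filter. With the round as a block 28 of 41 kept their side and 13 came to pass, all named in the report with their comparison, and the block changed no other call of a receptor.

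Genes called with the block numbered 6215 between spleen and tetramer-positive islet, 3442 between the islet groups, 6251 between spleen and tetramer-negative islet, 5094 in shared clones, 3602 for expanded over single-cell clones and 774 between expanded islet clones. Without the count filter they numbered 711 between the islet groups, 2916 in shared clones, 1628 for expanded over single-cell and 150 between expanded islet clones, and with DESeq2 574 between the islet groups and 55 between expanded islet clones. Leaving out 1 library gave 892 to 1891, 0 to 10, 382 to 686, 989 to 1835, 0 to 0 and 0 to 3 genes called in the same order of comparisons. Each left-out library moved the count by over 1.5 times in all comparisons but shared clones, where only spleen Round 2 did.

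Without 1 library the direction between the islet groups turned for Ccr2 (-0.34 to 0.23), Cxcr3 (-0.73 to 0.27) and Cxcr4 (-1.55 to 1.57), and between expanded islet clones for Ccr8 (-0.50 to 0.10), Cxcr3 (-0.91 to 0.15) and Cxcr4 (-2.16 to 1.45). The difference in thinned share between the islet groups, an alternative chosen after seeing the data, ran from -3.09 to 1.37 percentage points for Cxcr3, -2.37 to 8.97 for Cxcr4 and -1.10 to 1.53 for Ccr2. The share of clones higher in spleen moved to 0% for Cxcr6 (at least 10 cells), and by thinned share to 61.4% for Ccr2 and 0% for Ccr9. Leaving out cells with markers of other cell types without counting Cst3 and Cd68, also added later, changed no call of a receptor. The causes of these changes were not tested. The low levels of Ccr8 in spleen and of Ccr9 in tetramer-positive islet rest on at most 10 and 1 UMIs a library, and 2 libraries a group limit all tests.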
